A study of Drosophila melanogaster with 3 samples.

Results

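The small chromosome 4 of Drosophila melanogaster held 1917 FMRP sites outside the gene zfh2, of 60497 sites in the whole list. A member was any site of the authors' list on chromosome 4, except the stretch from the first to the last site that lies in zfh2 alone. zfh2 is a zinc finger homeobox gene, and its 408 sites were left out. A site is a base, 1 nt wide, at which the authors' list places FMRP on an RNA, with a strand and a score. FMRP, the fly fragile X protein, was mapped by enhanced CLIP, in which ultraviolet light links protein to RNA before the protein is pulled down. The series had 2 libraries of RNA pulled down with FMRP on FLAG beads, labelled as intestinal progenitor cells, and 1 size-matched input library, labelled as all cells. Each came from powder of 100 male and 100 female whole adult flies. The labels give no genotype, no tag or driver for FMRP, and no age beyond adult, so the cells in which the tagged protein was made are not stated here. The site list is not split by library, so depth is unknown, no value has a replicate error, and no difference below was tested.

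FMRP is an RNA-binding protein that binds many mRNAs, often along their coding part, and is best known as a repressor of their translation. Chromosome 4 is a short, largely heterochromatic chromosome whose genes are nonetheless transcribed. It carries genes of translation and RNA silencing, Wnt and Hedgehog transcription factors, axon guidance receptors and synaptic proteins.

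Every one of the 1917 sites lay in the span of at least 1 gene of the RefSeq gene table of Drosophila Release 6. The table gives spans without strand, exons or introns, so a gene received the sites that fell in its span and in no other. This assigned 1823 sites (95.1%) to 35 genes and left 94 sites in several overlapping spans. All 35 genes were protein-coding, of 79 protein-coding genes on the chromosome without zfh2. That is 44.3% of them, whereas 13.9% of protein-coding genes had an assigned site over all main chromosomes. At least 20 assigned sites were held by 20 of the 79 genes (25.3%), against a background of 4.42%. None of the 34 non-coding genes and pseudogenes of the chromosome had a site assigned to it alone. Small RNA genes aside, a gene that lies inside a larger span could receive none by this rule. Several shared sites with a protein-coding gene, as described below.

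The sites were carried by few genes. Tdg, the thymine DNA glycosylase of base excision repair (named Thd1 in the target list), led with 210 assigned sites. PlexA, a semaphorin receptor of axon guidance, had 183, and MED26, a subunit of the Mediator coactivator, had 169. They were followed by gw, the GW-repeat partner of Argonaute in microRNA silencing, with 123 and by eIF4G1, the scaffold of the cap-binding initiation complex, with 115. These 5 genes held 43.9% of the assigned sites, and the 20 genes with at least 20 sites held 92.1%. Another 3 genes reached 100 sites: CG31998 had 108, and the membrane-cytoskeleton linker gene Ank and the lysosomal transcription factor gene Mitf had 101 each. The median over the 35 genes was 27 sites, with quartiles of 11 and 91.5.

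**Figure D1:**
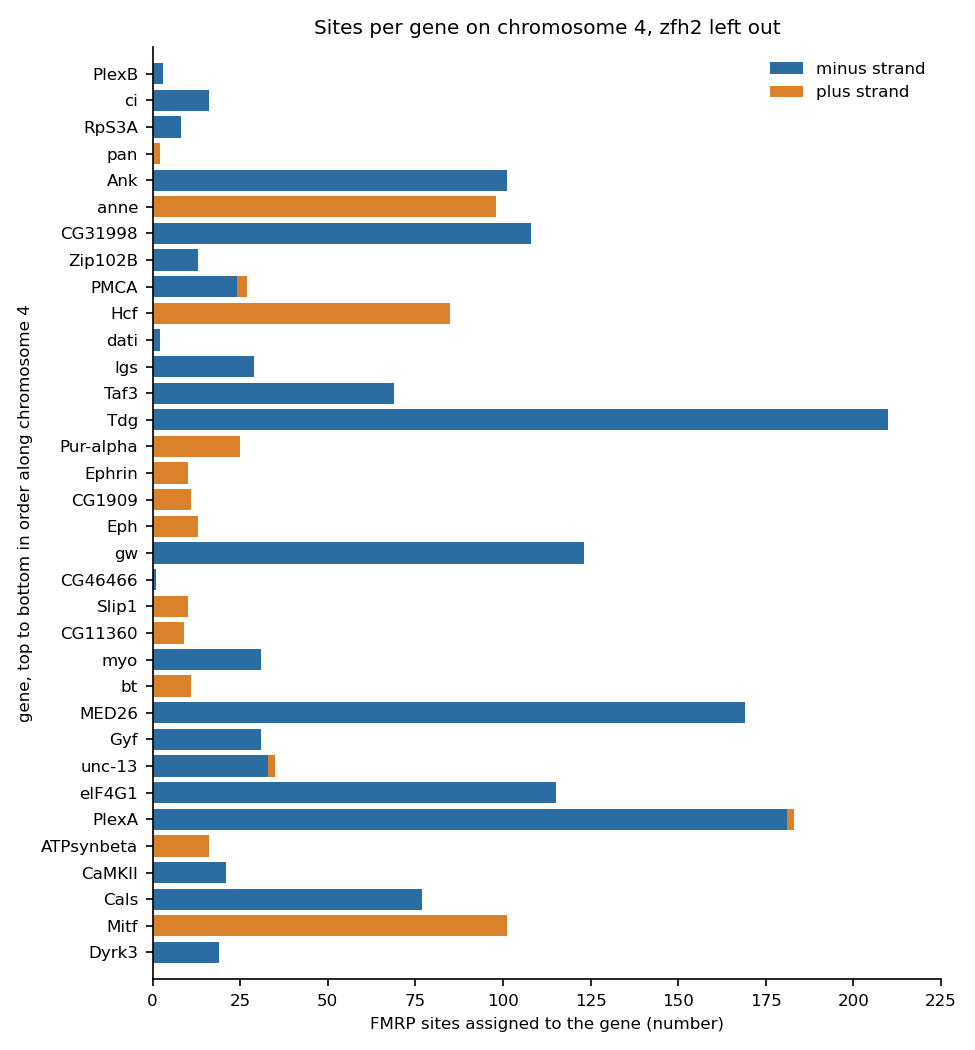
Number of FMRP sites assigned to each of 34 of the 35 chromosome 4 genes with a site (horizontal axis), with genes from top to bottom in their order along the chromosome. Bar parts give the strand of the sites: Tdg, PlexA and MED26 lead on the minus strand with 210, 181 and 169 sites, and Mitf, anne and Hcf lead on the plus strand with 101, 98 and 85.

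Most chromosome 4 sites lay on the minus strand. There were 1491 minus-strand and 426 plus-strand sites outside zfh2, so that 77.8% were on the minus strand (95% Clopper-Pearson interval 75.8 to 79.6, for counting error only, as if neighbouring sites were independent). Counted as runs of adjacent bases, 78.5% of 941 runs were on the minus strand. The same share of sites was between 51.6% on 3R and 56.4% on 2R over the 5 other arms. All 408 sites of the zfh2 interval were on the plus strand, so with zfh2 counted the chromosome was less uneven. Of the 35 genes, 23 had most of their sites on the minus strand and 12 on the plus strand. The genes with most sites on the plus strand were Mitf with 101, anne, a P-type ATPase gene, with 98, and the chromatin cofactor gene Hcf with 85.

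Within a gene, the strand was nearly uniform. All sites were on 1 strand in 32 of the 35 genes, some of which had very few sites. Over all main chromosomes this held for 95.8% of genes with at least 5 sites. The exceptions on chromosome 4 were 7 sites in PMCA, unc-13 and PlexA, which were all among its 31 genes with at least 5 sites. In PMCA, the plasma membrane calcium pump gene, 3 plus-strand sites at 349620 to 349622 lay among 12 minus-strand sites within 50 nt. The middle of the 3 scored 19.9, the highest score assigned to PMCA. In PlexA the plus-strand sites at 1013582 and 1013583 scored 10.02 and 1.04, with 1 minus-strand site within 50 nt. In the synaptic vesicle priming gene unc-13, plus-strand sites at 877632 and 877633 scored 2.16 and 0.713, and the nearest minus-strand site was 670 nt away. The gene table does not say which strand a gene is read from, so the strand of most sites was not set against it.

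The stretch left out for zfh2 did not end where the RNA contacts on its strand ended. The first and last bases left out, both on the plus strand, scored 1.89 and 4.25. The next member, at 538534 on the same strand, was 239 nt beyond the last and scored 2.06. On the other side the nearest member, at 466531 on the minus strand, was 35282 nt away in the TFIID subunit gene Taf3 and scored 0.0309. Between 538534 and 540482 there were 28 members, all on the plus strand, in the overlap of the zfh2 and Tdg spans. Their median score was 3.55, and the highest was 9.47. They lay on the strand of the 408 zfh2 sites and opposite to every other site in Tdg, the first of which came 3922 nt later. They are counted in the 1917 members but assigned to no gene. Without them there were 1889 members, of which 398 were on the plus strand.

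Tdg, the neighbour of zfh2, thus had its sites in a block of its own. Its 210 assigned sites lay between 544404 and 553668, all on the minus strand, which is 47.5% of its span of 19523 nt. A further 29 minus-strand sites between 557468 and 557847 lay in Tdg and in the non-coding gene lncRNA:CR43958 at once, and with them Tdg held 239 minus-strand sites. Their median score of 1.79 was lower than the 3.53 of the 210 sites. lncRNA:CR43958 was on the authors' target list, and these shared sites were its only ones. The next gene, Pur-alpha, for a single-stranded nucleic acid-binding protein, had 25 sites on the plus strand from 560366 on.

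Further overlaps lay in Taf3, PMCA, PlexB and unc-13. In Taf3, 28 minus-strand sites between 459969 and 461014 also lay in asRNA:CR45126, beside 69 sites of Taf3 alone, all on the same strand. The 5 sites at 331276 to 331280 shared by PMCA and the RING finger gene Rnf11 had a median score of 12.6 and a highest score of 23.8. They were the only sites of Rnf11. The semaphorin receptor gene PlexB shared 2 sites with asRNA:CR45124, and unc-13 shared 2 with asRNA:CR44029.

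Site density, the number of assigned sites per 1000 nt of genomic span, differed widely between genes with similar numbers of sites. MED26 had the highest density of the 20 genes with at least 20 sites, 16.2 per 1000 nt, with 169 sites in a span of 10463 nt. CG31998 followed with 11.6, Tdg with 10.8, and PlexA and gw with 10.6 each. Taf3 had 9.94, from 69 sites in 6942 nt. Minus-strand sites in overlapping spans, 28 in Taf3 and 29 in Tdg, would raise both densities, so this order holds for assigned sites only. At the low end, unc-13 had 0.786 over 44508 nt, PMCA 0.879 over 30725 nt, and CaMKII, a calcium-dependent kinase gene of synapses, 1.14 over 18416 nt. The median of the 20 genes was 6.30 per 1000 nt, with quartiles of 3.63 and 10.1, and that of the 606 genes with at least 20 sites on the other arms was 5.60, with quartiles of 2.60 and 11.1. The interquartile ranges overlapped for the most part. Among all genes with an assigned site, which include those with few, the medians were 3.94 on chromosome 4 and 1.85 on the other arms.

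Gene length accompanied the high share of genes with a site. The median span of protein-coding genes was 9754 nt on chromosome 4 without zfh2 and 2151 nt on the other arms. Among genes of 5000 to 10000 nt, 11 of 22 on chromosome 4 had a site (95% interval 28.2 to 71.8%), and 28.8% of 1483 on the other arms did (26.5 to 31.2). Among genes of 10000 to 20000 nt it was 15 of 27 (55.6%, 35.3 to 74.5) against 33.9% of 937 (30.9 to 37.1). Among genes of 20000 nt or more it was 5 of 12 (41.7%, 15.2 to 72.3) against 42.2% of 999 (39.2 to 45.4). Among genes of 2000 to 5000 nt it was 3 of 14 (21.4%, 4.66 to 50.8) against 13.4% of 3911 (12.3 to 14.5). Within chromosome 4 the median span was 10904 nt in the 35 genes with a site and 8320 nt in the 44 without. Below 2000 nt it was 1 of 4 against 3.13% of 6512 (2.72 to 3.59). In percentage points the shares of genes with a site differed less within each class than over all genes. Genes with at least 20 sites made up 25.3% of genes on chromosome 4 and 4.30% on the other arms. Among those of 10000 to 20000 nt the shares were further apart, 40.7% and 14.4%. In the other classes they were closer in percentage points. They were 27.3% and 10.3% at 5000 to 10000 nt, and 25% and 16.0% at 20000 nt or more. Below 5000 nt no chromosome 4 gene had at least 20 sites. The intervals cover counting error over genes only.

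**Figure D2:**
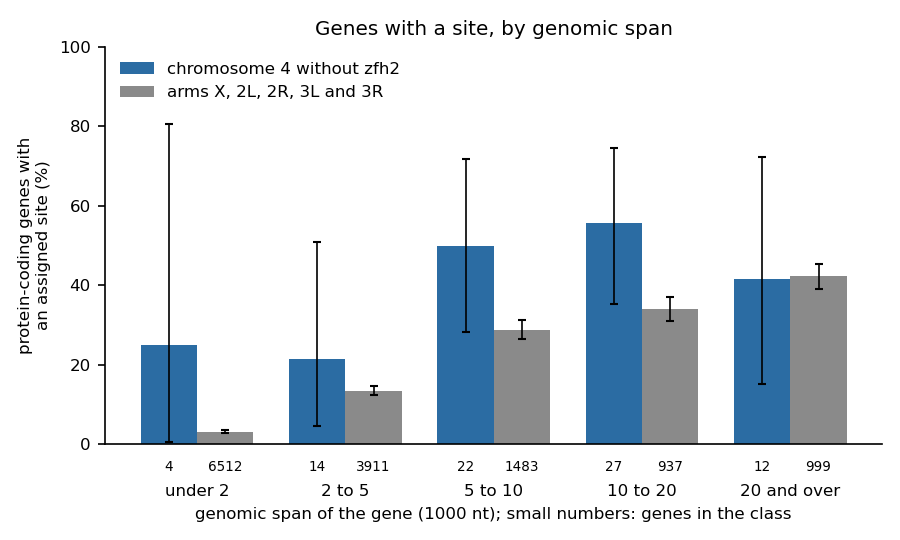
Share of protein-coding genes with an assigned site (vertical axis, percent) by genomic span (horizontal axis, in 1000 nt) on chromosome 4 without zfh2 and on the 5 other arms, with exact 95% intervals and the number of genes under each bar. The bars of genes of 20000 nt and more stand at 41.7% and 42.2%, and those of 10000 to 20000 nt at 55.6% and 33.9%.

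A short list of RNA and translation genes held gw, eIF4G1, RpS3A, Gyf and Pur-alpha. Of these, 5 of 5 had a site, 302 sites in all, and every one was on the target list. Over the 79 protein-coding genes of the chromosome, 44.3% had a site and 41.8% were on the target list. The role lists were drawn up with earlier results of these data known, so their counts are descriptions. gw had its 123 sites between 649564 and 658374 on the minus strand, with 24 of them in the 500 nt from 654624. eIF4G1 had its 115 sites between 915990 and 929896, split into 52 and 63 by a gap of 4050 nt with no site. Gyf, the GYF-domain translational repressor, had 31 sites, all within 1525 nt between 862492 and 864016, 11.3% of its span. RpS3A, of the small ribosomal subunit, had 8 sites within 33 nt, at 66339 to 66371, with a median score of 5.49. 4E-T, a binding partner of the cap-binding protein that was not on this list, had no site.

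Of 16 listed transcription factors and cofactors, 7 had a site and 9 had none, a share near the 44.3% of all protein-coding genes of the chromosome. MED26 had 169 sites, Mitf 101 and Hcf 85. lgs, the BCL9 homologue that joins beta-catenin to Pygopus, had 29 sites, of which 14 lay between 439725 and 439854. pan, the TCF factor that beta-catenin binds, had 2 sites, at 109089 and 109090, in a span of 44945 nt. The Hedgehog effector gene ci had 16 sites between 48192 and 52368. dati, a zinc finger gene, had 2. The 9 without a site were ey and toy, the Pax6 genes of the eye, sv, onecut, Sox102F, fd102C, NfI, pho and fuss, none of which was on the target list.

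Guidance and signalling genes had sites in 7 of 14 cases, again near the 44.3% over the chromosome, with 280 sites in all, of which PlexA held 183. The PlexA sites ran from 1010207 to 1023503, 77.3% of its span, with 28 of them in the 500 nt from 1019599. PlexB, its paralogue, had 3 sites assigned, within 147 nt, in a span of 11301 nt. myo, a TGF-beta family ligand gene, had 31, CaMKII 21 and the kinase gene Dyrk3 19. The receptor gene Eph had 13 sites and its ligand gene Ephrin 10. Actbeta, mav, CaMKI, Crk, PIP4K, Asator and mGluR had none.

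Membrane, synapse and cytoskeleton genes had sites in 5 of 12 cases, likewise near 44.3%. Ank had 101 sites, 6 of them at its upstream end and 95 after a gap of 5431 nt. unc-13 had 35, PMCA 27 and the zinc transporter gene Zip102B 13. bt, which encodes the giant muscle protein projectin, had 11 sites, all within 16 nt at 765586 to 765601, in a span of 52075 nt. No site was assigned to Syt7, Cadps, Zyx, Arl4, Arf4, Gat or dpr7. Of 6 metabolic, mitochondrial and repair genes, 2 had a site, beside the 44.3% over the chromosome. Tdg had 210 sites and ATPsynbeta, a subunit of the mitochondrial ATP synthase, had 16. ND-49, apolpp, Rad23 and yellow-h had none. Outside the lists, the calsyntenin gene Cals had 77 sites.

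Sites were laid out differently along different genes. Positions were read in the direction of the strand of most sites, and each span was divided into 5 equal parts. Mitf had 98 of its 101 sites in the last part, and its other 3 lay at the upstream end, 20552 nt away. anne had 48 of 98 sites in the last part and none in the first or second. In Gyf all 31 sites lay in the second part. In Hcf 16 of the 85 sites lay in the first part and 46 in the second, with none in the last. MED26, gw and CG31998 had sites in every part, and MED26 had 53 of its 169 in the last. Gene medians among the 20 genes ran between 25.1% of the span in unc-13 and 88.6% in Mitf.

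**Figure D3:**
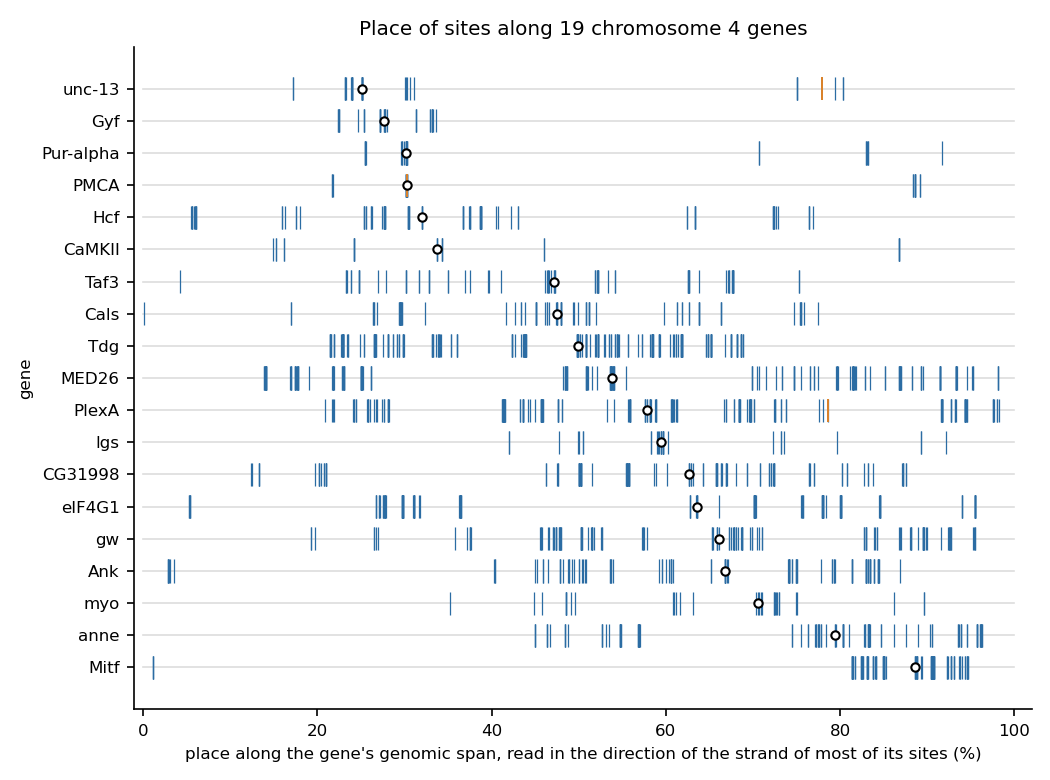
Place of each site along the genomic span (horizontal axis, percent, read in the direction of the strand of most sites) in 19 of the 20 chromosome 4 genes with at least 20 sites, ordered by their median (open circles). Blue ticks are sites on that strand, orange ticks sites on the other strand. The sites of Mitf gather at the downstream end around a median of 88.6%, those of unc-13 around 25.1%.

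Pooled over these 20 genes, 4.61% of sites lay in the first part of the span, 23.0% in the next, 26.4% in the middle part, 23.7% in the one after it and 22.3% in the last. In the 606 genes with at least 20 sites on the other arms the shares were 9.55%, 9.96%, 13.1%, 23.1% and 44.2%. Restricted to the 371 of these with a span within the range of the 20 genes, 5370 to 44508 nt, the last part still held 42.0% and the first 8.90%. The median over genes of the gene median was 55.8% of the span on chromosome 4, with quartiles of 33.3% and 66.3%. In the 371 genes it was 76.7%, with quartiles of 61.2% and 86.3%. The interquartile ranges met only between 61.2% and 66.3%. The place of introns and exons, which decides where an mRNA can be contacted, was not analysed here, and the difference was not tested.

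Most members stood next to another site. Of the 1917 sites, 77.3% were in a run of 2 or more adjacent bases on 1 strand, against 72.8% in the zfh2 interval and between 73.3% and 74.9% on the 5 other arms. There were 941 runs, of which 435 were a single site and 293 a pair. Runs of 5 or more bases numbered 67 and held 21.2% of the members, as against 19.4% in the zfh2 interval and between 16.3% on 3L and 21.6% on X over the 5 other arms. The longest had 10 bases, whereas the other arms reached 21. Both runs of 10 were in Tdg, at 549295 to 549304 and at 553372 to 553381, with highest scores of 36.2 and 41.3. Runs of 9 lay in bt at 765593 to 765601, in eIF4G1 at 925107 to 925115 and in PlexA at 1010859 to 1010867. The PlexA run had a highest score of 4.17, so a long run did not always hold a high score. Among the 20 genes, the share of sites in runs was lowest in myo, 51.6%, and highest in CaMKII, 90.5%.

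**Figure D4:**
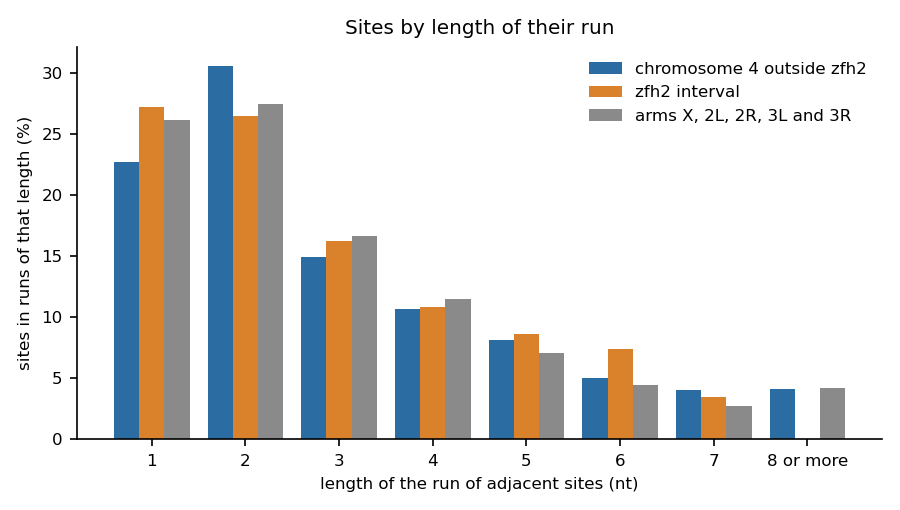
Share of sites (vertical axis, percent) by the length of the run of adjacent sites they belong to (horizontal axis, nt) on chromosome 4 outside zfh2, in the zfh2 interval and on the 5 other arms. Pairs hold 30.6% of chromosome 4 sites, 26.5% of zfh2 sites and 27.4% of those on the other arms, and no zfh2 run reaches 8 bases.

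Scores on chromosome 4 were close to those of the other arms through most of their range and had fewer high values. The authors deposited the score with no stated unit, and here it only ranks sites within the list. The median was 2.53 with quartiles of 1.04 and 5.41, against 5.41 with quartiles of 2.18 and 11.1 in the zfh2 interval and 2.71 with quartiles of 1.06 and 6.14 over the 5 other arms. The medians of the 5 other arms lay between 2.67 and 2.77, above that of chromosome 4. The highest 10% of scores in the whole list began at 12.96. They included 85 members (4.43%), 86 sites of the zfh2 interval (21.1%) and between 8.72% of the sites on 3L and 9.999% of those on X. The highest score among the members was 54.2, against 61.2 in the zfh2 interval and 708.4 on the other arms.

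The very highest scores came from a few places. The 20 highest lay in 7 genes, and wider sets were spread over more. The 10 highest lay in 4 genes. Taf3 had 3 of them in a single run at 463550 to 463552, with scores of 44.7, 39.2 and 54.2 in that order. MED26 had a score of 50.02 at 786693, in a run of 7 bases, and scores of 34.6 at 783355 and 32.7 at 783327. Tdg had 41.3 at 553376, 36.2 at 549296 and 31.4 at 552374, and lgs had 33.6 at 439762. Of the 85 members in the highest 10% of the list, Tdg held 18 and MED26 16. These were 8.57% of the assigned Tdg sites and 9.47% of the MED26 sites, both below the 10% of the whole list. gw held 1 of its 123 sites in the highest 10% and Ank 1 of its 101.

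A gene with many sites did not always have a high median score, and the relation between the number of sites and their scores was not tested. MED26 and Tdg had the highest gene medians of the 20 genes, 3.95 and 3.53. gw, with 123 sites, had a median of 1.90, and Hcf, with 85 sites, 1.75. PMCA had the lowest, 0.943. Genes with fewer than 20 sites included higher medians: ATPsynbeta had 7.02 over 16 sites, CG1909 had 6.51 over 11 sites within 23 nt, and RpS3A had 5.49. In ATPsynbeta, 4 of the 16 sites were in the highest 10% of the list, and all 16 lay within 414 nt. The median over the 20 genes was 2.37, with quartiles of 2.22 and 2.60, and over the 606 genes of the other arms 2.46, with quartiles of 1.83 and 3.34.

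**Figure D5:**
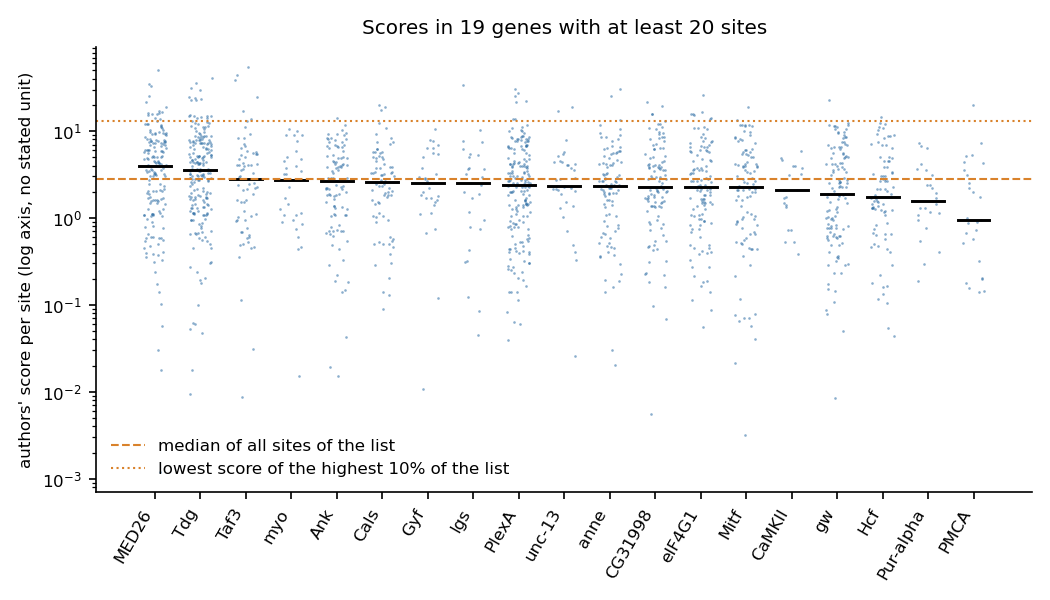
Authors' score of each site (vertical log axis, no stated unit) in 19 of the 20 chromosome 4 genes with at least 20 sites, with gene medians as black lines and genes ordered by them. The dashed line is the median of the whole list, 2.78, and the dotted line the start of its highest 10%, 12.96. MED26 and Tdg have medians of 3.95 and 3.53, PMCA of 0.943.

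Members that stood alone had the lowest median score of any run length, but the medians did not climb steadily with run length. They were 2.43 in pairs, 2.23 in runs of 3, 4.93 in runs of 6 and 4.06 in runs of 8 or more. Members that stood alone had a median score of 1.61, those in runs of 2 or more 2.89, and those in runs of 5 or more 4.19. The same medians were 3.49, 6.12 and 5.90 in the zfh2 interval and 1.53, 3.29 and 5.28 on the other arms. In 132 of the 213 runs of at least 3 bases (62.0%) the highest score was at an inner base. It was so in 53.2% of 47 runs in the zfh2 interval and 60.8% of 6439 on the other arms. Longer runs have more inner bases, and these shares were not compared at like run lengths.

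Long stretches of the chromosome were free of sites. Only stretches between neighbouring sites were measured, not the chromosome ends before the first site and after the last. The longest such stretch was 107066 nt, between 204791 and 311857. Wholly inside it lay 9 protein-coding genes, among them the adaptor gene Crk, the synaptotagmin gene Syt7, NfI and Rad23. A stretch of 80311 nt between 929896 and 1010207, next to PlexA, held mGluR, 4E-T, fuss and toy. A stretch of 75796 nt between 1123342 and 1199138 held 7 protein-coding genes, including pho and PIP4K. In windows of 10000 nt between the first and the last member, 54 of 119 held a member, and the fullest held 153. The 119 include windows wholly inside the stretch left out for zfh2, which hold no member by definition.

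Nearly all of the genes with a site assigned to them alone were on the authors' target list. Of the 35 genes with an assigned site, 33 were on it (94.3%, 95% interval 80.8 to 99.3), whereas 70.7% of protein-coding genes with an assigned site were over all main chromosomes. Genes with a site had a median of 27 sites on chromosome 4 and 8 on the other arms. The shares were not compared at like numbers of sites. The list and the sites come from the same libraries and are not independent. Of the remaining genes with a site, CG46466 had 1. A listed name that fitted several genes was matched to none, so a gene counted as off the list may be on it. Of the 79 protein-coding genes 33 were targets (41.8%), against a background of 11.1%. No chromosome 4 gene without a site in its span was on the list. Counting every span that holds a site, 40 genes had a site, of which 34 were on the list.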

How the data were processed

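Enhanced CLIP libraries were made from whole adult flies, 2 FMRP immunoprecipitates and 1 size-matched input. The authors deposited 2 lists for the whole series, 1 of sites with a score and 1 of 1829 target names, with no value per library. Tools in the submitters' processing notes, without roles, are STAR 2.7.3a, SAMtools 1.10, cutadapt 2.9, DESeq2 and UMI-tools. What caller, genome build or score unit was used is not given in the sources used here. Coordinates follow the site list and count from 1. Gene names and spans come from RefSeq Release 6. As the table has no strand, genes were assigned by span alone. Sites in a small RNA gene went to the smallest such gene. Of the target names, 1818 matched 1 gene by symbol, locus or synonym. Runs are adjacent bases on 1 strand. Named genes have at least 20 sites, or come from the rule that chose the sites, the role lists or the extremes. Assignment and run finding were tested on simulated data with sites planted in 94 genes. Members and lists were chosen with earlier results of these data known. The values of 1 gene are not reported here, but it is included in counts over genes. No genome sequence was used here. Python 3.11.15, pandas 2.3.3 and SciPy 1.17.1 were used.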

Additional observations from a re-analysis of the deposited data

How the results depend on the processing

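No library could be left out and no difference tested, because the lists hold no values per library. No paired analysis was possible because the columns carry no replicate numbers. With only sites scoring at or above the median of the whole list, 901 of the 1917 members were left, 12 genes in place of 20 had at least 20 sites, and 63.6% of sites were in runs in place of 77.3%; fewer sites are kept by construction. With gaps of up to 5 or 20 nt allowed, 82.8% and 89.9% of sites were in runs. The median score of the members minus that of the rest of the list was -0.26, and minus that of the zfh2 interval -2.88. The minus-strand share was 79.1% at or above the list median and 78.9% without the 28 sites in the zfh2 span, an alternative chosen after seeing the data. Counting every span that holds a site gave 40 genes with a site, and widening spans by 500 nt gave 35.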
